A study of Mus musculus with 6 samples.

Results

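The cytosolic ribosomal protein genes encode the protein subunits of the ribosomes that translate most cellular mRNA. Their members were taken by symbol (Rpl or Rps followed by a number, with Rpsa, Rplp0, Rplp1 and Rplp2), with at least 100 counts summed over 6 libraries. Of the 23337 gene symbols counted, 84 matched and 78 had enough counts: 43 large-subunit genes, 31 small-subunit genes and 4 paralogs that resemble a core gene (Rpl22l1, Rpl7l1, Rps27l and Rps4y2). The S6 kinases, whose symbols begin with Rps6k, are enzymes and were left out.

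The libraries came from mouse alveolar type II (AT2) cells, which make surfactant and can give rise to the flat type I cells of the alveolus. The 3 mutant libraries had the genotype SpC-CreER/Dlk1flox/ROSA-Tomato, and the 3 wild-type libraries had SpC-CreER/ROSA-Tomato. Both groups thus carried the inducible Cre driven by the surfactant protein C promoter and the Tomato reporter, and differed by the floxed Dlk1 allele. Dlk1 encodes a membrane protein related to Notch ligands. Cells positive for Tomato were sorted 10 days after acute lung injury with the bacterium Pseudomonas aeruginosa in both groups. Because a culture of 8 days is mentioned in the protocol for RNA extraction, it is not settled whether the RNA came from fresh or cultured cells. The sources used here do not state the ages or the induction of Cre. Nothing in the labels says that the libraries came from separate animals, so the tests measure only the spread between these samples.

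Totals ranged from 22511461 to 30695994 counts per library. Surfactant markers were abundant, with a summed AT2 list (15 genes) of 164179 to 209753 CPM (counts scaled to the library total, per 1e+06 counts), lowest in mutant 1. Mutant 1 stood apart in markers of other cells: all 8 leukocyte markers were highest there, with a sum of 536 CPM against 8.13 to 31.4 CPM in the other libraries. The fibroblast list summed to 226 CPM in mutant 1 against 3.47 to 7.14 CPM elsewhere, the erythroid list to 342 against 1.28 to 10.1 CPM, and the club list to 16297 against 5631 to 8419 CPM. Wild type 2 held 184.6 CPM of Xist, the RNA of the inactive X chromosome, and no other library exceeded 2.93 CPM. The Y-linked gene Ddx3y was lowest there, at 2.88 CPM against 49.8 to 78.2 CPM elsewhere. Dlk1 itself had at most 2 counts in any library, so it gave no check of the genotype labels.

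Ribosomal proteins are made in near-equal numbers, since each ribosome usually holds 1 copy of most of them, and the cell coordinates their synthesis largely at the level of translation. Their mRNAs begin with a 5′ terminal oligopyrimidine (TOP) tract, a C at the cap followed by a run of C and T. The kinase mTOR and the RNA-binding protein LARP1 act through that tract, so the mRNA level and the rate of synthesis of these proteins can move apart. In the lung, AT2 cells translate large amounts of surfactant protein mRNA.

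Start sequences are shown because the tract is the shared regulatory feature of these mRNAs. They are RefSeq sequences of GRCm38.p6, from 10 bases before the annotated start to the 20th base from it, and capitals mark a C at the start with the C and T bases that follow it directly. The first 4 hold the tract at the annotated start. The paralog Rpl22l1 does not, because its annotated start is a G, but a run of C and T follows directly.
Rpl15: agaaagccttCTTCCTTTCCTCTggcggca
Rps6: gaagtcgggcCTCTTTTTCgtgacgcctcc
Rpl28: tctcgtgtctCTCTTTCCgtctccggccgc
Rplp2: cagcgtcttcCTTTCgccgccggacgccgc
Rpl22l1: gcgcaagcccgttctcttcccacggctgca
These stretches lie at chr14:18270967-18270996 on the minus strand (Rpl15), chr4:86857348-86857377 on the minus strand (Rps6), chr7:4792955-4792984 on the plus strand (Rpl28), chr7:141447641-141447670 on the plus strand (Rplp2) and chr3:28805498-28805527 on the plus strand (Rpl22l1).

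Of the 78 genes, 58 had an entry in the RefSeq promoter table. A C at the annotated start followed by at least 4 further C or T bases was found in 13 of the 58 (22.4%), against 3.01% of the 27025 genes in the table. An annotated start that is a few bases off hides the tract, so a run of a C and at least 7 more C or T bases was also counted anywhere from 20 bases before the start to 50 after it. That run was present in 45 of 58 ribosomal protein genes (77.6%), against 22.7% of all genes in the table and 16 of 68 mitochondrial ribosomal protein genes (23.5%). Only the transcribed strand was read, and a match describes the letters and not a working element. The median log2 fold change between mutant and wild type was -0.13 for the 13 genes with the tract at the start and -0.13 for the other 45.

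Together the 78 genes took 1.73% to 2.05% of all counts. Their summed level was 20459, 17662 and 17337 CPM of the library total in mutants 1, 2 and 3. Wild types 1, 2 and 3 held 20009, 20260 and 18167 CPM. The groups overlapped, because mutant 1 held the highest level of the 6 libraries and mutants 2 and 3 the lowest. The mutant mean was 18486 ± 1717 CPM (SD, n = 3) and the wild-type mean 19478 ± 1143 CPM (SD, n = 3), a difference of -5.10%, or -993 CPM, that is smaller than the spread between replicates. The difference was -1979 CPM without mutant 1, where the groups no longer overlapped, and -1648 CPM without wild type 3. It was -580 CPM without mutant 2, -418 CPM without mutant 3, -727 CPM without wild type 1 and -602 CPM without wild type 2.

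The order depended on the scale. With the library totals corrected by trimmed mean of M values (TMM) factors, which align the bulk of genes across libraries, the sums were 19080, 17918 and 17314 in the mutants against 20577, 20549 and 18434 in the wild types. Mutant 1 then lay below wild types 1 and 2 but above wild type 3, and the groups still overlapped. The means were 18104 ± 897 and 19853 ± 1229 TMM-normalised CPM (SD, n = 3 each), a difference of -8.81%. The factor of mutant 1 was 1.07, against 0.972 to 1.001 for the others, and mutant 1 is the library with the high markers of other cell types; their part in this shift was not tested. In bulk RNA, fewer cells of a type and less RNA per cell cannot be told apart.

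**Figure D1:**
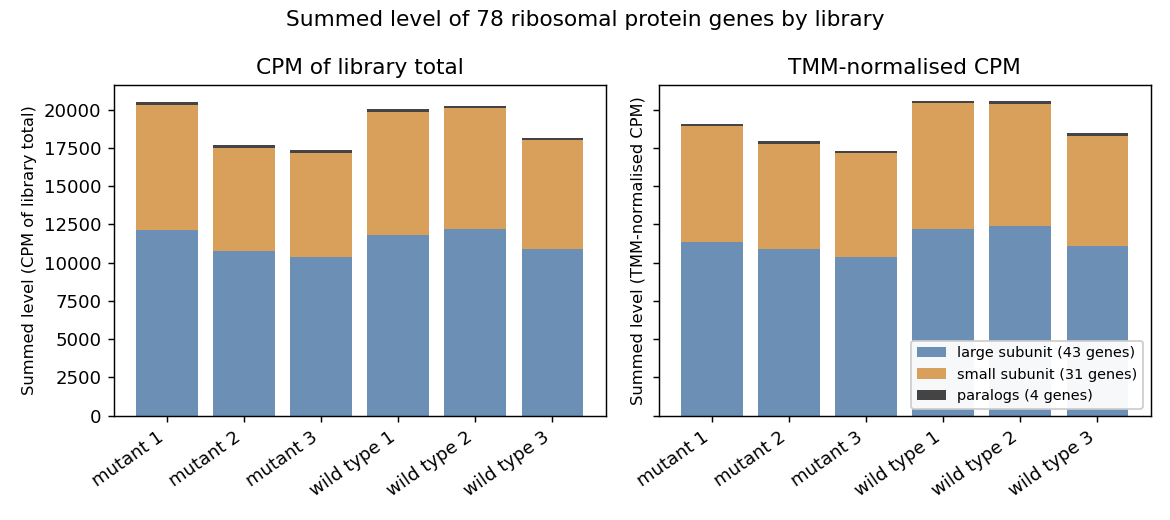
Summed level of the 78 ribosomal protein genes in each library, as CPM of the library total (left) and TMM-normalised CPM (right), stacked by large subunit, small subunit and paralogs. Mutant 1 is the highest bar at 20459 CPM on the left and stands at 19080, below wild types 1 and 2, on the right.

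The subunits kept their proportion. The large-subunit sum was 1.48 to 1.59 times the small-subunit sum over the 6 libraries, with a mean ratio of 1.53 ± 0.0525 in the mutants and 1.53 ± 0.0410 in the wild types (SD, n = 3 each). The 4 paralogs added only 144 to 189 TMM-normalised CPM per library. Their sums were 144, 155 and 159 in the mutants against 178, 189 and 188 in the wild types, so here the groups did not overlap.

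Levels of single genes spanned a wide range. Rpl4, which lines the exit tunnel of the large subunit, took the most counts, with a mean of 923 CPM, followed by Rpl21 at 753, Rplp0 at 569, Rpl7 at 557, Rps3 at 530 and Rpl8 at 489 CPM. These values grow with transcript length. Per kilobase of coding sequence the order changed: Rpl41, the smallest ribosomal protein, led with 2617 CPM per kb, ahead of Rpl21 (1568), Rps29 (1369), Rps15 (1086) and Rplp1 (1039), while Rpl4 stood at 735 CPM per kb. Across libraries the levels of Rpl21 and Rps29 overlapped, as did those of Rps15 and Rplp1. The median over 77 genes with a coding length was 432 CPM per kb. Coding length leaves out the untranslated parts of the mRNA, and it is only 75 bases for Rpl41 and 168 for Rps29. The order per kilobase is therefore not an order of mRNA abundance.

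Some core genes had few or no counts. Rps27 had a mean of 1.78 CPM, or 7.07 CPM per kb, although its protein is a core subunit, and every 50-base stretch of its coding sequence also occurs in another annotated gene or pseudogene. Rpl26 was at 0 counts in all 6 libraries, Rpl30 had 34 counts in all and Rpl34 had 88, just under the minimum of 100. Just above it stood Rps27 with 281 and Rps4y2 with 805 counts. Among the genes with a coding length, a median of 93.0% of 50-base stretches was shared and 30 genes were shared throughout. How the authors' counting treated reads that fit several places is not stated in the sources used here, so the levels of such genes are uncertain. Rps3, Rpl8 and Rpl4, with 8.09%, 8.73% and 20.3% shared, were among the most separable, and each lay below 0 in log2 fold change (-0.15, -0.12 and -0.08).

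In the comparison of mutant with wild type, none of the 78 ribosomal protein genes passed the 5% threshold, and 73 of the 78 had a log2 fold change below 0. All 78 passed the filter on low counts and were tested among 12899 genes with edgeR's quasi-likelihood test and Benjamini-Hochberg adjustment, which called 0 genes in all (background 0%). Without adjustment, p was under 0.05 for 7 ribosomal protein genes, all lower in the mutant, against a background of 2.89% of all genes lower and 3.69% higher. DESeq2 called 46 genes in all (0.265% of those tested), 1 of them a ribosomal protein gene, Rps27l, which was lower (background 0.109% lower), and 12 of the 78 had an unadjusted p under 0.05 there (background 2.01% lower). The smallest adjusted p among the 78 was 0.737 in edgeR. The count at an unadjusted p under 0.05 varied with the fit: it was 31 lower with limma-voom (background 5.24%), 10 with the replicate number as a block (background 2.79%), 17 without mutant 1 (background 2.84%), 17 without wild type 3 (background 3.63%) and 2 with library totals alone (background 1.47%).

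The fold changes were small and lay close together. They ran from -0.44 to 0.03 with a median of -0.13, against a median of 0.00 over all genes tested, of which 48.9% were below 0. The 2752 other tested genes at levels like those of most members had a median of -0.02, with 56.3% below 0. Of these, 110 were lower at an unadjusted edgeR p under 0.05, and 214 had separate groups and were lower. The middle of the members' distribution, between the quartiles, covered -0.18 to -0.10. The large-subunit genes had a median of -0.12 (41 of 43 below 0) and the small-subunit genes -0.13 (29 of 31 below 0). For 73 of the 78 the 95% interval lay within a 1.5-fold change in either direction. On simulated counts of the same depth and spread, the test recovered 14.9% of genes changed 1.5-fold and 59.2% of those changed 2-fold, and smaller folds were not simulated. The changed genes were drawn from all 12899 genes tested, at any level, so these shares do not describe the ribosomal protein genes alone.

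**Figure D2:**
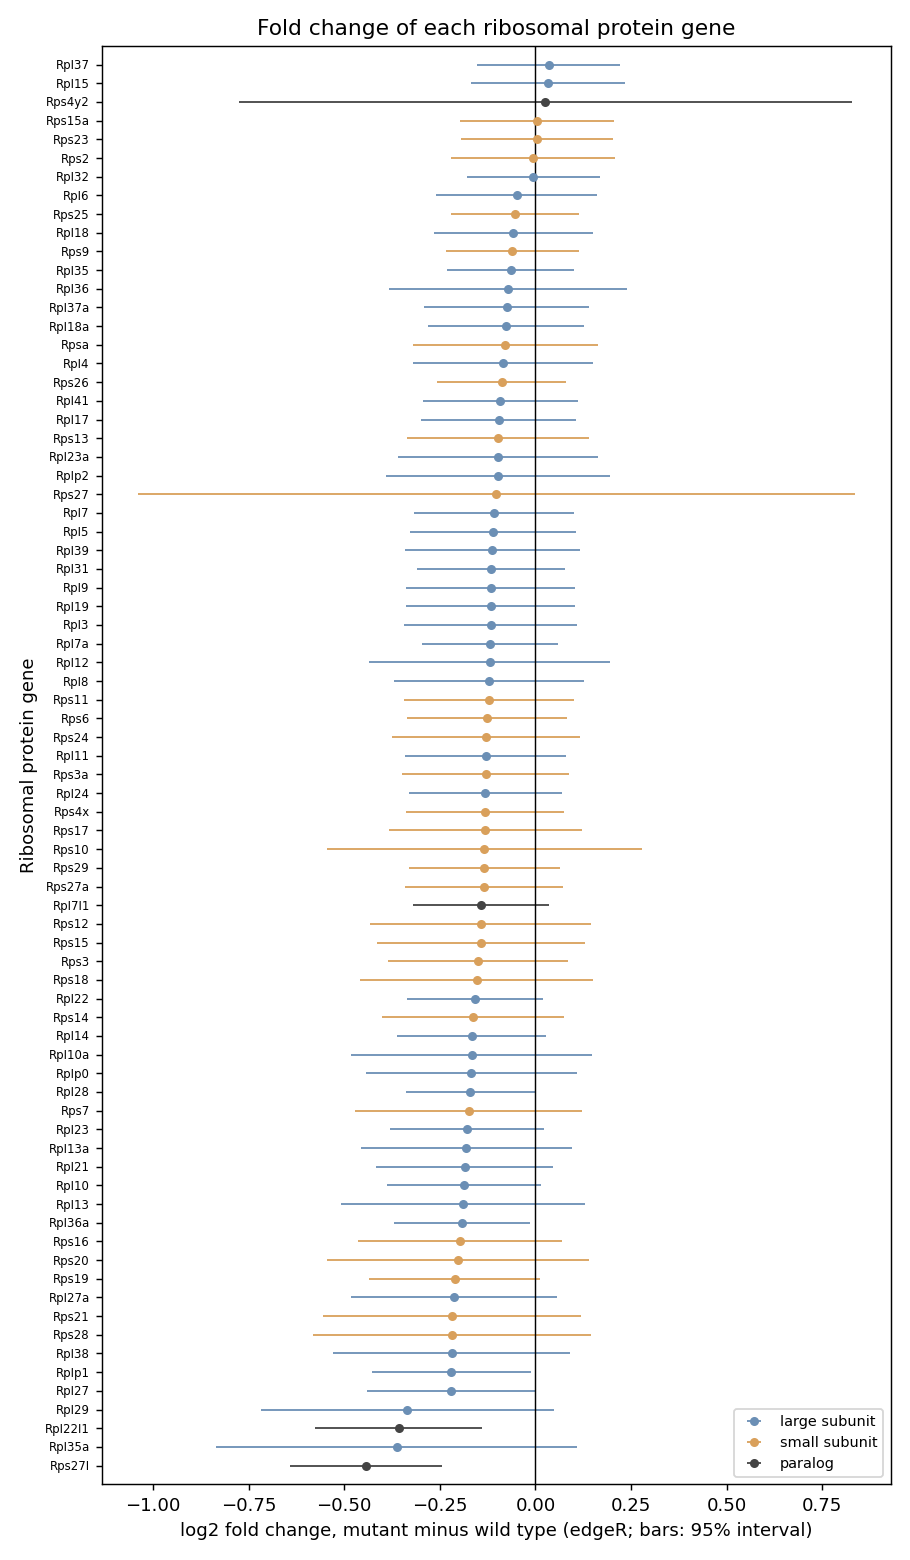
Log2 fold change, mutant minus wild type, of the 76 ribosomal protein genes shown, with 95% intervals from edgeR; colours give large subunit, small subunit and paralog. Points run from -0.44 (Rps27l) to 0.03 (Rpl37), 71 lie left of 0, and the intervals of 6 exclude 0 without adjustment.

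The shift followed libraries as well as groups. Relative to the mean of the other libraries, the median ribosomal protein gene deviated by 0.03, -0.12 and -0.15 (log2) in mutants 1, 2 and 3. In wild types 1, 2 and 3 it deviated by 0.16, 0.14 and -0.05. Wild type 3 thus sat with the mutants and mutant 1 between the groups. Wild type 1 held the highest value for 38 genes and wild type 2 for 30, while mutant 3 held the lowest for 37 and mutant 2 for 27.

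For 15 of the 78 genes all 3 mutant libraries lay below all 3 wild-type libraries (background 6.43%), and for 0 they lay above (background 5.23%). Without mutant 1 the first count was 39 (background 11.8%). On library totals without TMM factors it was 3 with all libraries (background 3.5% lower and 8.16% higher, with 0 members higher) and 33 without mutant 1 (background 10.1%). The 3 that held on library totals were Rps27l, Rpl22l1 and Rpl10. Rpl22, Rpl28, Rplp1 and Rpl36a overlapped there, with mutant 1 above wild type 3. Rpl7l1 overlapped there too, with mutant 3 above wild type 3. The count of 15 therefore rests mostly on how mutant 1 is scaled. Between libraries of the same number, 62, 73 and 66 of the genes were lower in the mutant (50.1%, 50.7% and 49.8% of all genes tested), and 51 were lower in all 3 (background 15.8%).

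**Figure D3:**
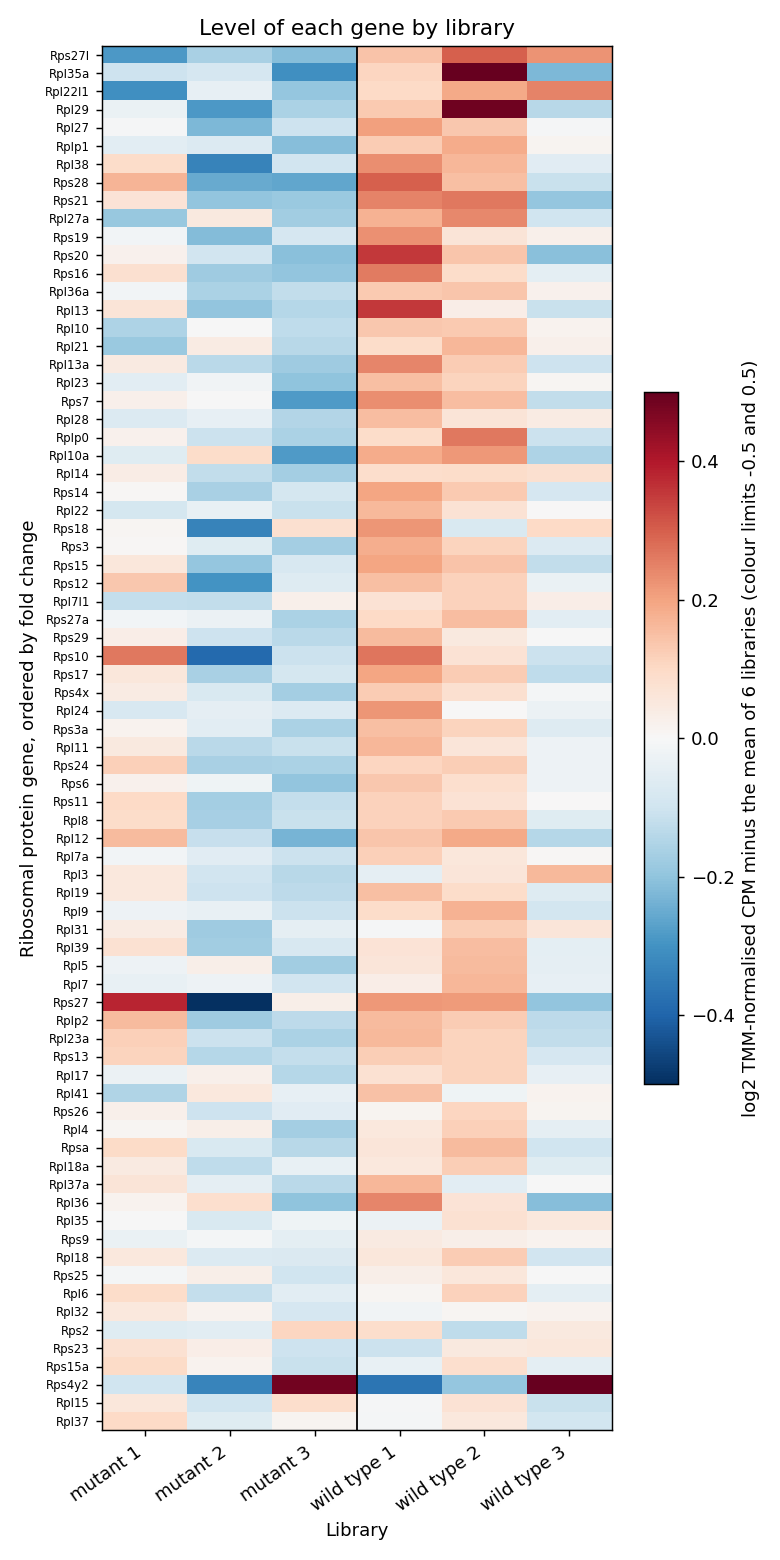
Log2 TMM-normalised CPM of the 76 genes shown in each library, minus that gene's mean over the 6 libraries; genes are ordered by fold change and a line parts mutants from wild types. Wild types 1 and 2 are mostly red (above the mean) and mutants 2 and 3 mostly blue, while mutant 1 and wild type 3 are pale. Measured against the mean of the other libraries instead, the medians of mutant 1 and wild type 3 were 0.03 and -0.05 over all 78 genes.

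Part of the spread between libraries was shared by the genes. The median SD of log2 level over the 6 libraries was 0.123. It became 0.0852 once each library's median log2 level over the 78 genes was subtracted. Rpl19, Rpl11 and Rps29 had the smallest remaining SD, at 0.0183, 0.0186 and 0.0228. Rpl11 and Rps29 ranked 37 and 38 of the 78 genes by mean CPM, close to the median that was subtracted. Their small remaining SDs thus follow in part from the calculation. The 4 genes with the largest SD were Rps4y2 (0.396), Rps27 (0.369), Rpl35a (0.330) and Rpl29 (0.276).

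Rpl35a, a large-subunit protein, was at 67.4, 68.4 and 58.6 TMM-normalised CPM in the mutants against 77.9, 110 and 61.9 in the wild types, high in wild type 2 alone. Rpl29, also of the large subunit, was at 44.5, 37.2 and 40.8 against 49.7, 63.6 and 41.3, also highest in wild type 2. Rps4y2 was at 4.62, 3.94 and 6.91 against 3.84, 4.32 and 7.04, high in mutant 3 and wild type 3, and the groups overlapped for all 3 genes.

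The lowest fold changes with separate groups belonged to paralogs. Rps27l, a p53 target that resembles Rps27, was at 29.5, 32.2 and 31.1 TMM-normalised CPM in the mutants against 39.7, 44.4 and 42.1 in the wild types. All mutant libraries lay below all wild-type libraries. The log2 fold change was -0.44 ± 0.08 (SE; edgeR adjusted p = 0.737, unadjusted p = 0.00111), and DESeq2 gave an adjusted p of 0.0489. Leaving out mutant 1 ended that call, with an adjusted p of 0.416 in DESeq2 and a log2 fold change of -0.41.

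Rpl22l1 resembles Rpl22, whose protein can bind the Rpl22l1 RNA and lower its expression. It was at 45.8, 55.0 and 49.6 TMM-normalised CPM in the mutants against 60.8, 64.7 and 67.4 in the wild types, without overlap. Its log2 fold change was -0.36 ± 0.09 (SE; edgeR adjusted p = 0.737) and did not pass. Rpl22 was at 199, 206 and 195 against 237, 222 and 211, without overlap on this scale only. Its log2 fold change was -0.16 ± 0.08 (SE; edgeR adjusted p = 0.739). Per 100 counts of Rpl22, Rpl22l1 had 23.1, 26.7 and 25.4 counts in the mutants against 25.7, 29.1 and 31.9 in the wild types, and these ranges overlapped.

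Rpl7l1, which acts in large-subunit assembly, was at 64.4, 64.3 and 71.2 TMM-normalised CPM against 73.5, 75.7 and 71.6 in the wild types. The groups were parted only narrowly, by mutant 3 and wild type 3, and the log2 fold change was -0.14 ± 0.08 (SE; edgeR adjusted p = 0.739). Its parent Rpl7 was at 542, 546 and 521 against 569, 624 and 541, which overlapped. Rps27 was too low to compare with its paralog: its 281 counts gave 2.25, 1.11 and 1.76 TMM-normalised CPM in the mutants and between 1.51 and 2.01 in the wild types.

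**Figure D4:**
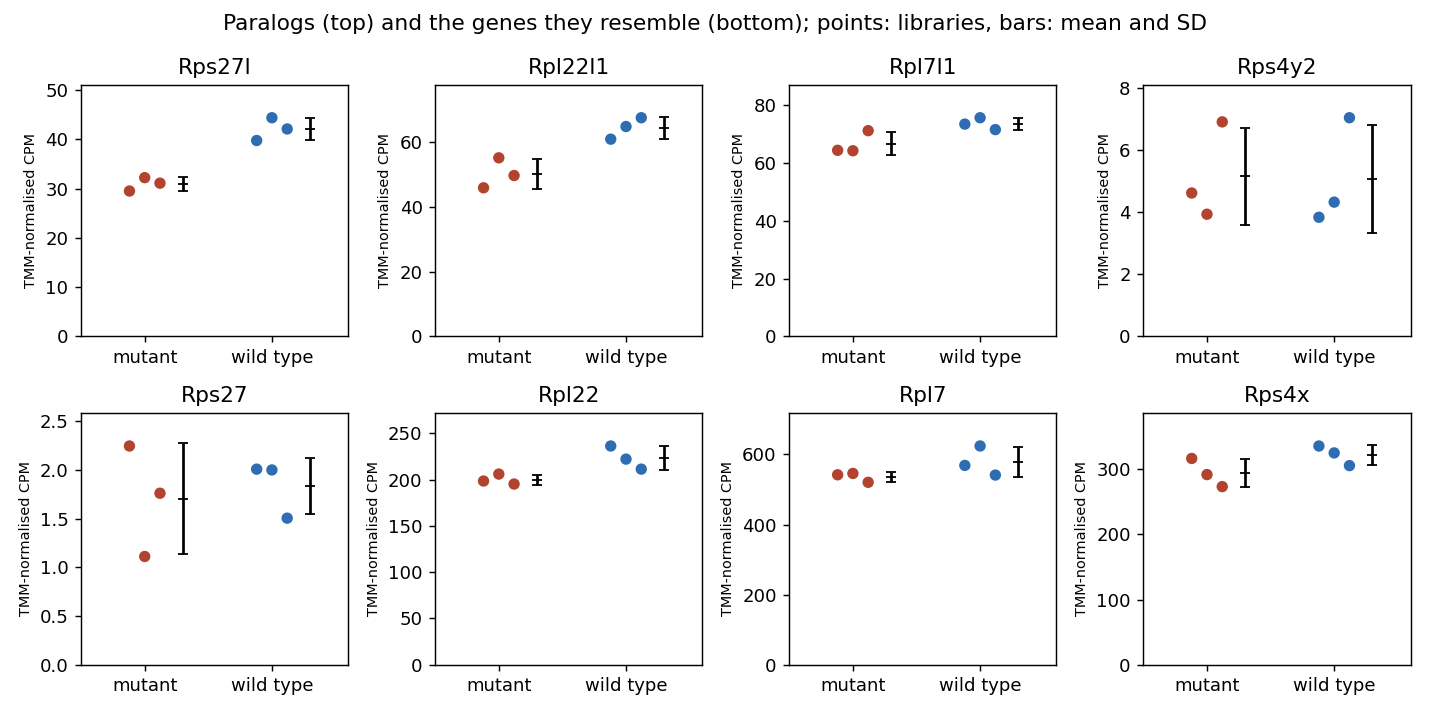
TMM-normalised CPM of 4 paralogs (top) and the core genes they resemble (bottom) in mutant (red) and wild-type (blue) libraries; points are libraries and bars show the mean and SD of 3. Rps27l (29.5 to 32.2 against 39.7 to 44.4) and Rpl22l1 are parted by group, and the Rps27 and Rps4y2 points overlap.

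Among core subunits with a small unadjusted p, Rpl28 of the large subunit was at 140, 143 and 133 TMM-normalised CPM in the mutants, with 164, 154 and 151 in the wild types, and had a log2 fold change of -0.17 ± 0.07 (SE; edgeR adjusted p = 0.737). Its groups did not overlap on this scale, but as CPM of the library total mutant 1 (150.4) lay above wild type 3 (149.2). At the other end 5 genes had a fold change above 0: Rpl37 and Rpl15 with 0.03 each, Rps4y2 with 0.03, and Rps15a and Rps23 with 0.00, and none of the 5 had separate groups.

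The stalk of the large subunit, built of Rplp0, Rplp1 and Rplp2 on a base that includes Rpl12, recruits the GTPases of translation. All 4 genes were below 0. Rplp1 was at 341, 338 and 306 TMM-normalised CPM in the mutants against 387, 403 and 358 in the wild types. Its groups were apart on this scale only, with a log2 fold change of -0.22 ± 0.09 (SE; edgeR adjusted p = 0.737). Rplp0 was at 574, 525 and 508 against 603, 680 and 525 (log2 fold change -0.17), Rplp2 at 304, 241 and 249 against 304, 297 and 249 (-0.10) and Rpl12 at 288, 239 and 220 against 284, 294 and 234 (-0.12). In these last 3 the groups overlapped, and mutant 1 lay above wild type 3.

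Rpl5 and Rpl11 form a particle with 5S ribosomal RNA that can also bind the p53 regulator Mdm2. Rpl5 was at 265, 275 and 239 TMM-normalised CPM against 281, 300 and 261, and Rpl11 at 241, 212 and 215 against 261, 242 and 228. Both overlapped between groups, with log2 fold changes of -0.11 ± 0.09 and -0.13 ± 0.09 (SE). The genes mutated in Diamond-Blackfan anaemia, an inherited failure of red cell production, include these members: 14 of the 15 listed were tested, 13 were below 0 and 0 passed.

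Rps4x, Rpl10, Rpl36a and Rpl39 lie on the X chromosome. Rpl10, which joins the large subunit late in its assembly, was at 420, 466 and 428 TMM-normalised CPM against 512, 512 and 472, and Rpl36a at 97.1, 87.9 and 90.0 against 107, 108 and 99.5. Neither pair of groups overlapped on this scale, with log2 fold changes of -0.19 in both (edgeR adjusted p = 0.737 for each). On library totals Rpl10 stayed apart and Rpl36a overlapped. Rps4x was at 317, 292 and 273 against 336, 325 and 306, and Rpl39 at 62.5, 52.5 and 56.0 against 62.0, 65.8 and 57.2, both overlapping.

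Other genes of the ribosome and of translation were read from the same fit, and 0 passed the threshold in any of these lists. The genes named are among the 3 of each list with the smallest unadjusted p unless stated otherwise, whatever the size of their fold change. The mitochondrial ribosome list had 61 of 77 genes below 0 and a median of -0.08. By library, its median gene deviated by -0.03, -0.04 and -0.05 in mutants 1, 2 and 3. In wild types 1, 2 and 3 that gene deviated by 0.16, 0.03 and -0.06, so only wild type 1 stood well above the mutants. The smallest unadjusted p values of the list belonged to Mrpl30 (-0.31), Mrps24 (-0.35) and Mrpl16 (0.30). The groups did not overlap for any of the 3. Ribosome biogenesis genes had 23 of 40 below 0 (median -0.02), with Imp3 of the nucleolar processome at -0.39. RNA polymerase I genes, which transcribe ribosomal RNA, had 4 of 12 below 0 (median 0.04), with Polr1d at -0.12, Polr1a at 0.15 and Ttf1 at 0.09.

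Translation factors and related genes listed as known TOP mRNAs had 11 of 19 genes below 0 and a median of -0.02. Of the 13 with a promoter entry, 2 held the tract at the annotated start and 7 the run in the window. Tpt1 was at 815, 842 and 759 TMM-normalised CPM against 967, 1062 and 901, without overlap (log2 fold change -0.28). Hnrnpa1, an RNA-binding protein, had a log2 fold change of 0.65 with overlapping groups. Its level was low, at 3.04, 5.13 and 4.30 TMM-normalised CPM in the mutants against 2.24, 2.44 and 3.26 in the wild types. The elongation factors Eef1a1 (-0.09) and Eef2 (0.02), chosen here as abundant genes, overlapped between groups. Initiation factors had 8 of 20 below 0 (median 0.01), with Eif1 at -0.29 and Eif4h at -0.25. The list of mTOR and LARP1 control had 6 of 15 below 0 (median 0.05) and Larp1 was at -0.12, the Myc network 5 of 9 (-0.02) with Mnt at 0.25 and its groups apart, snoRNA host genes 5 of 7 (-0.13) and ribosome stress genes 6 of 11 (-0.01). None of these medians was tested against that of the ribosomal protein genes.

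**Figure D5:**
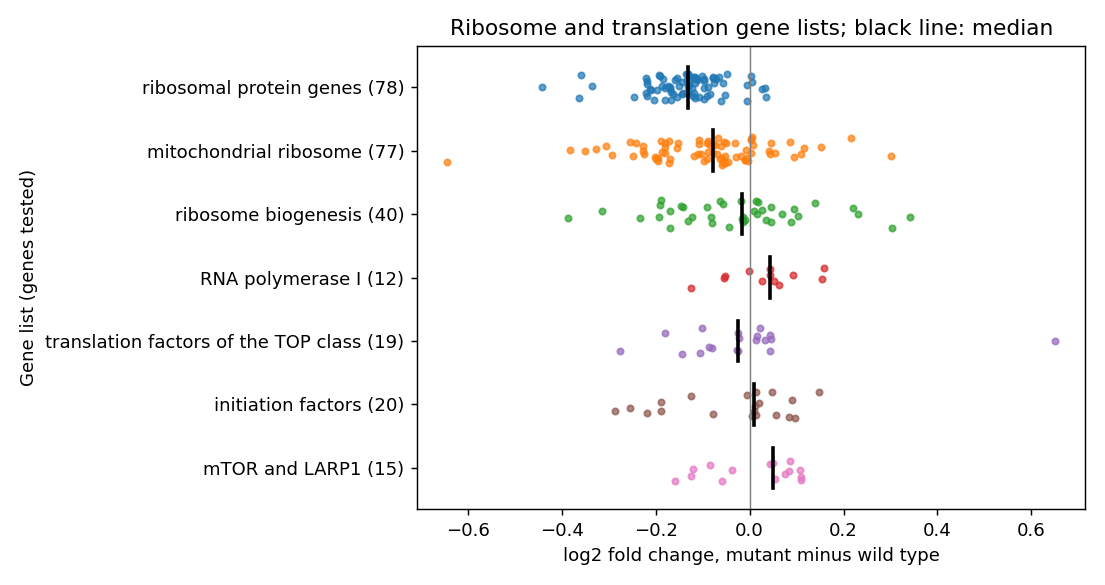
Log2 fold change, mutant minus wild type, of every tested gene in 7 lists of the ribosome and translation; each point is a gene and the black line is the list's median. The ribosomal protein genes have a median of -0.13, the mitochondrial ribosome -0.08, and the other lists lie between -0.02 and 0.05.

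The sign of the fold change varied with coding length among other genes. Of the 78 genes, 54 had a coding length under 600 bases. Among genes outside the list, those under 600 bases had 62.3% below 0 and a median of -0.06 (1495 genes), while those of 2400 bases or more had 33.2% below 0 and a median of 0.06 (2268 genes). For genes under 600 bases with a mean of at least 50 CPM the share was 70.3% and the median -0.07 (360 genes), and at that level genes of 2400 bases or more had 38.3% below 0 and a median of 0.03 (996 genes). By library, the median of those 360 genes deviated by -0.15, 0.04 and -0.02 (log2) in mutants 1, 2 and 3. In wild types 1, 2 and 3 it deviated by 0.07, 0.05 and 0.03. The ribosomal protein genes had another order in the mutants, at 0.03, -0.12 and -0.15. The part of coding length in the shift of the ribosomal protein genes was not tested. AT2 markers were mostly below 0 (14 of 15, median -0.18) and AT1 markers mostly above (11 of 12, median 0.22), with 0 passing in either list. The median AT2 marker deviated by -0.27, 0.03 and -0.03 in mutants 1, 2 and 3, lowest in mutant 1. It deviated by 0.21, 0.09 and -0.01 in wild types 1, 2 and 3. The median AT1 marker deviated by 0.15, 0.20 and 0.11 in the mutants against -0.07, -0.13 and -0.22 in the wild types.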

How the data were processed

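Sequencing libraries of polyadenylated RNA from 3 mutant and 3 wild-type samples were made with a TruSeq kit and run on 1 flow cell, per the labels' protocols. The labels name a NextSeq500 and the design text a HiSeq4000. The deposited files hold raw counts for each gene symbol, as whole numbers. The submitters' processing notes name mm9, CASAVA and DESeq2. The sources used here do not state the aligner, counting program, annotation or strand handling.

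Genes were filtered with filterByExpr by group, scaled by TMM and tested with edgeR 4.0.16 (quasi-likelihood, two-sided, mutant minus wild type, R 4.3.3), with Benjamini-Hochberg adjustment over 12899 genes at 5%. On 3 sets of simulated counts with 200 changed genes, 22 of 38097 unchanged genes were called. Alternatives were DESeq2 1.42.0, limma-voom (limma 3.58.1), other scaling factors and filters, the replicate block and leaving out each library. Totals put 3 counts, the limit that a count of 0 allows, at 0.0977 to 0.133 CPM (counting error only). Pairs within a group differed by 19.3 to 80.6 chi-square per degree of freedom, so none agreed within sampling noise. Deviations of same-numbered libraries correlated at 0.31, 0.21 and 0.17, which met the rule used (each above 0.1). Libraries of unlike number correlated at -0.25 to 0.07. The deviations were taken from the mean of each group of 3, which by itself forces correlations of both signs. The values therefore cannot establish that the numbers pair the samples, and the labels do not state a pairing.

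Members and gene lists were chosen with earlier results of these data known. Named genes were the 6 highest and 4 lowest by mean CPM, the 6 smallest p in each direction (only 5 were above 0), paralogs and parents, the stalk, 5S and X-linked genes, the 4 largest folds with separate groups, the 4 largest SDs over libraries and up to 3 genes of each other list. Other named genes, the classes of coding length, the 50% bound on shared stretches and the tract windows were chosen after values were seen. Coding lengths and shared stretches came from GENCODE M21 on GRCm38. A few genes stay in the counts, medians and tests but are not reported here by name, and the plots of single genes leave them out.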

Additional observations from a re-analysis of the deposited data

How the results depend on the processing

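The median log2 fold change of the 78 ribosomal protein genes stayed below 0 under every alternative run, from -0.19 to -0.07, and 68 to 75 of them were below 0. The highest median came from library totals without scaling factors, where the median of all genes tested was 0.06. With the replicate block the median was -0.13, 10 members had an unadjusted p under 0.05 and 0 passed, so the block changed no call. Limma-voom gave 31 members with an unadjusted p under 0.05 and 0 past the threshold. Of all genes, DESeq2 called 46, DESeq2 without mutant 1 called 22 and the replicate block without mutant 1 called 8. Leaving out 1 library gave 0 to 1 genes, the 1 without wild type 3, and 0 ribosomal protein genes. DESeq2 alone called 1 ribosomal protein gene, Rps27l. The cause of these differences was not tested. With mutant 1 left out, 17 members had an unadjusted p under 0.05 and without wild type 3 also 17, against 7 with all libraries.

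Of the 78 genes, 64 stayed below 0 under every alternative run. Among the named members, 6 changed sign in at least 1 alternative. With each library left out in turn, the log2 fold change of Rps27 ranged from -0.35 to 0.12, of Rps4y2 from -0.24 to 0.33, of Rpl37 from -0.0080 to 0.069, of Rpl15 from -0.017 to 0.084, of Rps15a from -0.046 to 0.058 and of Rps23 from -0.048 to 0.055. Without the filter on low counts Rps15a was at -0.0062 and Rps23 at -0.0066, and limma-voom gave -0.084 and -0.069. With DESeq2 and mutant 1 left out, Rpl37, Rps15a and Rps23 were at -0.0045, -0.042 and -0.031. With the replicate block and mutant 1 left out, Rps4y2, Rpl37, Rps15a and Rps23 were at -0.079, -0.0045, -0.065 and -0.088. Alternatives that leave out mutant 1 in DESeq2 or with the block, and library totals alone, were chosen after seeing the data. Rps27 and Rps4y2 rest on few counts, 281 and 805 in all. How shared sequence bears on the levels was not tested.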

Other observations

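Several small-subunit genes on chromosome 17 were chosen here after their values were seen. Rps2, at the mRNA entry side of the small subunit, was at 206, 207 and 231 TMM-normalised CPM in the mutants against 228, 196 and 222 in the wild types. Rps18 was at 138, 109 and 146 against 160, 130 and 147. On this scale both were lowest in mutants 1 and 2 and wild type 2, while as CPM of the library total mutant 1 lay above wild type 3 for Rps2 (221 and 219) and Rps18 (148 and 145). The class II gene H2-Eb1, on the same chromosome, was at 350, 275 and 618 against 570, 308 and 515, lowest in the same 3 libraries. The class II gene H2-Aa, also there, had the opposite order, at 1890, 1685 and 1553 against 1285, 1765 and 1229, highest in those 3. Rps10 and Rps28, also on chromosome 17, did not share that order: Rps10 was at 123, 78.0 and 94.9 against 123, 107 and 94.7, and Rps28 at 77.5, 57.8 and 57.5 against 84.6, 76.5 and 63.7. No test was made of this pattern.

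Rpl3l, the paralog of Rpl3 found mainly in striated muscle, had 36 counts in all, 26 of them in mutant 1, and lay below the minimum for a member. Rpl39l had 7 counts and Rpl10l 0. Rpl36al, the paralog of Rpl36a, did not match the symbol rule but had 4991 counts. Its groups overlapped, with a log2 fold change of -0.05. Core subunit genes with other names were counted too. Fau was at 167, 125 and 134 TMM-normalised CPM in the mutants against 180, 159 and 138 in the wild types, and Gnb2l1 (Rack1) at 592, 489 and 483 against 552, 582 and 496. Both overlapped between groups, with log2 fold changes of -0.16 and -0.06.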
